A study of Mus musculus with 6 samples.

Results

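The oocyte transcription factor genes *Nobox*, *Figla*, *Lhx8*, *Sohlh1*, *Sohlh2*, *Taf4b* and *Tbpl2* were found by their symbols in a deposited table of FPKM, fragment counts scaled to gene length and sequencing depth, and all 7 were among its 25631 genes. The table holds 6 RNA-seq libraries of oocytes punctured from large antral follicles of naturally aged ICR mice, 14 months old and injected with equine chorionic gonadotropin (eCG), a hormone that drives antral follicle growth. In the aminophylline group (n = 3 libraries), mice drank 4 mM aminophylline, a theophylline derivative that inhibits phosphodiesterases nonspecifically, for 1 week and then water only for 3 weeks. In the control group (n = 3 libraries, labelled as aged oocytes), mice of the same age drank water and also received eCG. The numbers of mice and oocytes behind a library are not given in the sources used here, so p-values measure the spread between these libraries, which may be technical. The comparison addresses whether the genes that direct oocyte-specific transcription differed after aminophylline.

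These factors build the transcription programme of the growing oocyte. FIGLA, SOHLH1 and SOHLH2 are basic helix-loop-helix (bHLH) proteins, which bind E-box motifs as dimers, NOBOX is a homeobox protein, and LHX8 is a LIM-homeobox protein; loss of each is known to impair early follicles. SOHLH1 and SOHLH2 act at the start of the programme, before FIGLA, LHX8 and NOBOX are fully in place. TAF4B is a germ cell paralog of the TFIID subunit TAF4, and TBPL2 is an oocyte paralog of the TATA-binding protein TBP.

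Promoter sequences from RefSeq (GRCm38.p6) are shown for the genes on which the comparisons turn, and a start site was matched for 6 of the 7 members (not *Taf4b*). The search covered the 250 bases upstream of each start site on both strands for the E-box CANNTG and its forms CACGTG and CACCTG, which overlap it, for the homeobox cores TAATTG and TAATTA, and for the TATA core TATAAA. For *Nobox* and *Figla* the start site in the sequence table lies inside the annotated gene span, so the bases searched are upstream of that start site but within that span. Capitals mark E-boxes. The *Figla* window holds a pair of E-boxes, and the *Nobox* windows hold an E-box each. *Sohlh1* is shown whole because it alone among the members held CACGTG, in 3 copies, and *Tbpl2* and *Tbp* are shown whole because their RNAs are compared as a ratio.
Figla (chr6:86017011-86017040, plus strand): tcgcactCAGGTGcgtCAAGTGtgtcacag
Nobox (chr6:43309674-43309703, minus strand): cagcccccacccCAGGTGtgcggtgcctcg
Nobox (chr6:43309587-43309616, minus strand): gcagactccacaCACCTGgccaccccacgg
Sohlh1 (chr2:25847249-25847498, minus strand): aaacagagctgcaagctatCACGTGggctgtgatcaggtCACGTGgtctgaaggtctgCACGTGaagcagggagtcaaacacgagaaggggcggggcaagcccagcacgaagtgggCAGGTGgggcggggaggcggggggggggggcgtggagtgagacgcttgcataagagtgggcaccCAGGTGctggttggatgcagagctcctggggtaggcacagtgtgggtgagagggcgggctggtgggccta
Tbpl2 (chr2:24096596-24096845, minus strand): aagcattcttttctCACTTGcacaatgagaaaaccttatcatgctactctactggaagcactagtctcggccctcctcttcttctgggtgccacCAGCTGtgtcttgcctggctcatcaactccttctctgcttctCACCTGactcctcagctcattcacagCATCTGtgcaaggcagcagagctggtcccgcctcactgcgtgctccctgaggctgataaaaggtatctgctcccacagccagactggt
Tbp (chr17:15499638-15499887, plus strand): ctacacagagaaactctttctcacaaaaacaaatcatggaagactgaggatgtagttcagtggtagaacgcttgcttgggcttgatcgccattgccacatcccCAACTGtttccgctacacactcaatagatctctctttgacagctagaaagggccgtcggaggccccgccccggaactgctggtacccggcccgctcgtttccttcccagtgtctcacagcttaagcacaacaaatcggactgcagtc
CANNTG was found in 5 of the 6 members (not *Lhx8*), against 66.2% of all 32851 promoters. CACCTG was found in *Nobox*, *Figla*, *Sohlh1* and *Tbpl2*, against 17.2% of promoters, and CACGTG in *Sohlh1* alone, against 6.02%. None of the 3 other motifs was found in a member, and they occurred in 7.17% (TAATTG), 4.84% (TAATTA) and 12.4% (TATAAA) of promoters. Each match describes letters in the window and not a bound site. In the same annotation no other gene spanned *Nobox* (chr6:43303674-43310072), *Figla* (chr6:86016494-86020996), *Lhx8* (chr3:154306288-154330560), *Sohlh1* (chr2:25842995-25847248), *Sohlh2* (chr3:55182044-55209957) or *Tbpl2* (chr2:24071366-24096595).

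The libraries held 14112341 to 33641283 reads, recovered from the FPKM values, and control 2 was the shallowest. Oocyte markers were abundant, with 12 of 12 at an FPKM of at least 1 and a summed level of 9300 to 15300. Of 12 granulosa cell markers, 4 reached an FPKM of 1 in any library. The summed FPKM of the list, 214 to 278 in control and 163 to 177 in aminophylline libraries, was mostly *Serpine2*, with *Amh* at or near 0. *Serpine2* was lower in each aminophylline library than in each control library. *Nr5a2* was higher, with 7.14 to 8.53 FPKM against 4.43 to 6.63 FPKM in control. Such gaps were found for 4.96% (lower) and 7.51% (higher) of the genes tested below. *Cyp19a1* had 7.37 to 15.7 FPKM, with overlap. Of 11 macrophage markers, 10 were highest in control 1, 8 of them more than 5 times above the next library. Their summed FPKM ran from 81.1 to 264 in control and from 81.7 to 101 in aminophylline libraries. Outside control 1 the sum was mostly C1qb, which had 72.3 to 99.8 FPKM in every library. Without C1qb the markers summed to 192 FPKM in control 1 and to 1.3 to 3.03 FPKM in the other libraries, where *Adgre1* was 0. Markers of cumulus cells (3 of 6 found), stroma and theca, and erythrocytes summed to under 2 FPKM in every library. Endothelium markers summed to 5.63 to 8.89 FPKM, mostly *Pecam1* at 4.87 to 6.66 FPKM. The part of these markers in the results was not tested.

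The 7 genes covered a wide range of levels (FPKM, which is per length). *Nobox* was the most abundant with a mean of 298 FPKM over the 6 libraries and rank 351 in the table. *Figla*, with 69.8 FPKM, and *Lhx8*, with 65 FPKM, came next, and *Figla* was above *Lhx8* in only 3 of 6 libraries, so these neighbours did not differ beyond their spread. *Tbpl2* followed at 12.3 FPKM, below both in 6 of 6 libraries. *Sohlh2* had 2.62 FPKM and *Taf4b* 1.48 FPKM, and although *Sohlh2* was higher within each of the 6 libraries, the ranges overlapped. *Sohlh1* closed the order at 0.0496 FPKM.

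**Figure D1:**
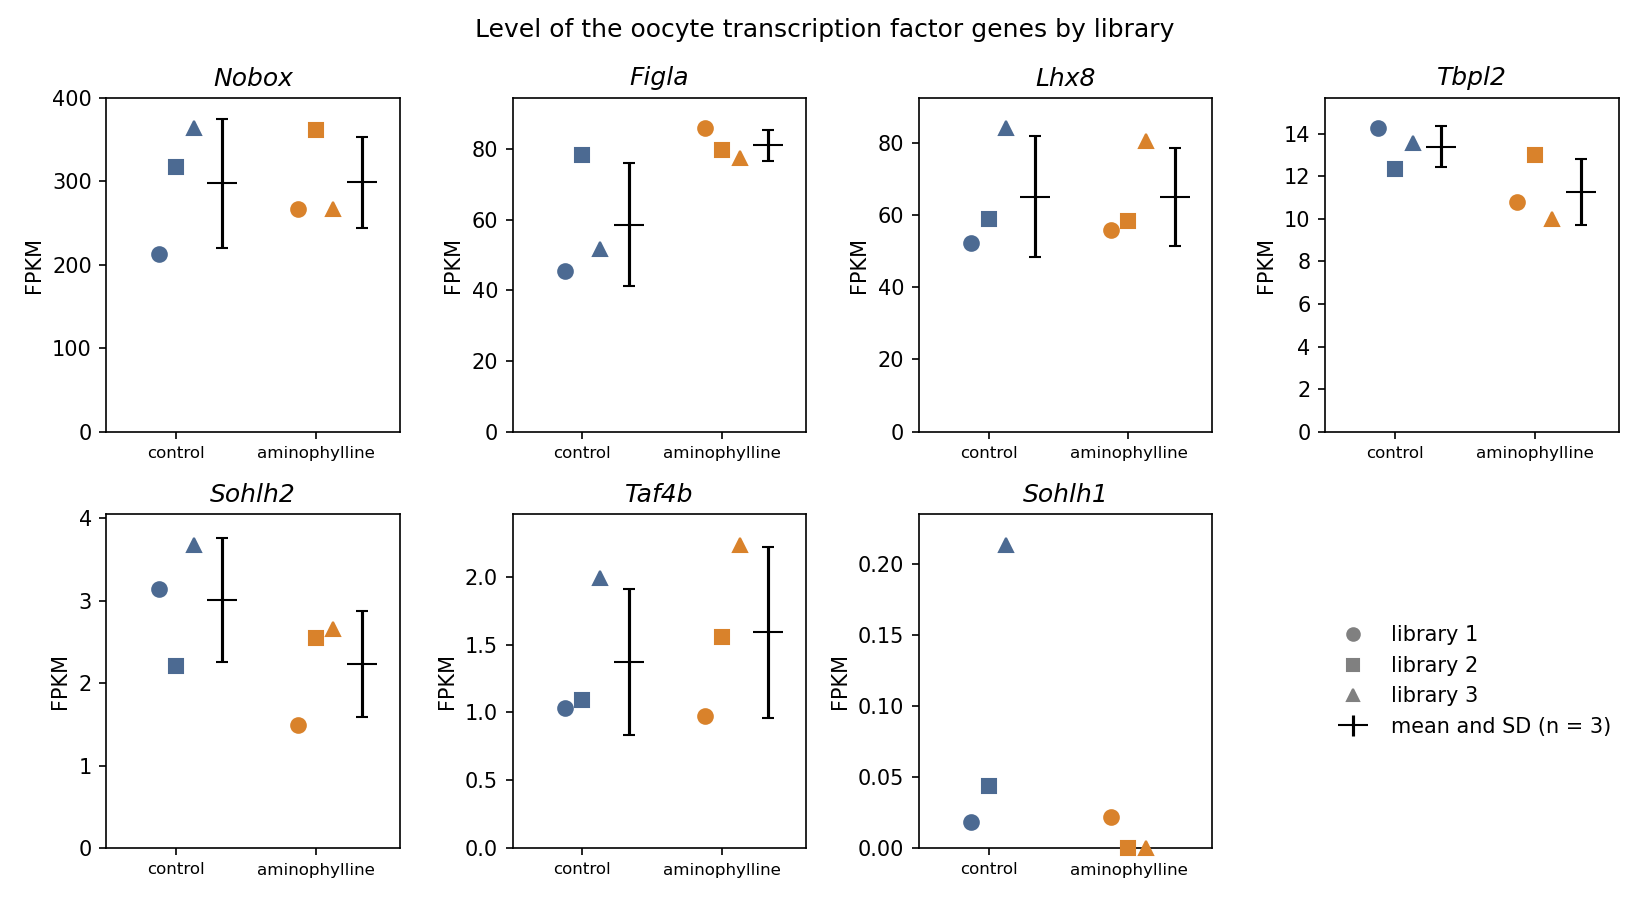
FPKM (vertical axis, linear, from 0) of each member in the 3 control and 3 aminophylline libraries, with symbols for library 1, 2 and 3 and black bars for the mean and SD; no mean is drawn for *Sohlh1*, which had at most 1 read in 5 of the 6 libraries. *Nobox* and *Lhx8* had nearly the same mean level in both groups, *Figla* was tightly grouped near 81 FPKM in aminophylline libraries, and the groups overlapped for all 7 genes.

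Of the 6 members that passed the filter (FPKM of at least 1 in at least 3 libraries), none differed between the groups at an adjusted p under 0.05, and 1, *Figla*, had an unadjusted p under 0.05. Over all 10340 genes tested with limma, 0% passed at an adjusted p under 0.05 and 7.25% at an unadjusted p under 0.05 (4.41% higher, 2.84% lower), and the smallest adjusted p was 0.455. The median difference was 0.02 on the log2(FPKM + 1) scale for the 6 members and 0.10 for all genes tested. No member had groups without overlap, against 12.5% of genes tested. In bulk RNA, fewer cells of a type and less RNA per cell cannot be told apart.

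*Figla*, the bHLH factor known for switching on the zona pellucida genes, had the largest estimated difference of the members. Its FPKM was 45.6, 78.4 and 51.8 in control libraries 1, 2 and 3 and 85.9, 79.7 and 77.6 in the aminophylline libraries. The aminophylline libraries lay close together, whereas control 2 reached their level and control 1 and control 3 stood well below, so that 2 of the 3 aminophylline libraries exceeded every control library. The means were 58.6 ± 17.4 FPKM in control and 81.05 ± 4.33 FPKM in aminophylline libraries (SD, n = 3), resting on 1423 to 3119 reads. The difference was 0.50 ± 0.205 (SE) on the log2(FPKM + 1) scale, or 1.41-fold with a 95% interval of 1.03 to 1.93, with an unadjusted p under 0.05 and an adjusted p of 0.682 (limma). By p, *Figla* was at rank 479 of the genes tested. Without control 1, the library that carried the macrophage markers, the difference was 0.34 and its unadjusted p was above 0.05 (limma adjusted p = 0.984), and without control 2 it was 0.72 (limma adjusted p = 0.0966).

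*Sohlh2*, a partner of SOHLH1 in dimers, was low in all libraries. Its FPKM was 3.14, 2.20 and 3.68 in control and 1.49, 2.54 and 2.66 in aminophylline libraries. Aminophylline 1 was the lowest and control 3 the highest, and the groups overlapped. The difference of -0.31 ± 0.241 on the log2(FPKM + 1) scale had a 95% interval from -0.84 to 0.22 (limma adjusted p = 0.755), on 73 to 275 reads per library. It was -0.14 without aminophylline 1, -0.19 without control 3 and -0.47 without control 2.

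*Sohlh1*, the other factor of this pair, was close to absent at this depth. It had 1, 1 and 11 reads in control libraries 1, 2 and 3 and 1, 0 and 0 reads in aminophylline libraries. Only control 3, at 0.214 FPKM, was above the floor of 3 reads that a count of 0 allows, and the gene was under the filter. With no filter its difference was -0.11 ± 0.066 on the log2(FPKM + 1) scale, with a 95% interval from -0.27 to 0.05 (limma adjusted p = 0.836). Reads and floors cover counting error only. The promoter with 3 CACGTG boxes printed above thus belongs to the member with the fewest reads.

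*Nobox*, the homeobox factor known to activate *Gdf9* and *Pou5f1*, was at similar levels in the groups. Its FPKM was 213, 317 and 364 in control and 267, 362 and 268 in aminophylline libraries. Control 1 was the lowest library and control 3 the highest, with the aminophylline libraries between them. The means were 298 ± 77.4 FPKM and 299 ± 55 FPKM (SD, n = 3). The difference of 0.03 ± 0.215 on the log2(FPKM + 1) scale turned to -0.06 with median centring, and its 95% interval ran from -0.45 to 0.50 (limma adjusted p = 0.979), on 10782 to 27886 reads.

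*Lhx8*, the LIM-homeobox factor needed as primordial follicles form and mature, had nearly equal means, as *Nobox* did. Its FPKM was 52.2, 58.9 and 84.0 in control and 55.9, 58.4 and 80.4 in aminophylline libraries. In both groups library 3 was high and libraries 1 and 2 lay close together. The difference of 0.01 ± 0.215 on the log2(FPKM + 1) scale turned to -0.07 with median centring, and its 95% interval ran from -0.47 to 0.48 (limma adjusted p = 0.994).

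*Tbpl2*, which takes the place of TBP at promoters in growing oocytes, was slightly lower by its estimate after aminophylline. Its FPKM was 14.2, 12.3 and 13.6 in control and 10.8, 13.0 and 9.97 in aminophylline libraries. In 2 of the 3 aminophylline libraries it was below every control library, and aminophylline 2 lay within the control range. The means were 13.4 ± 0.967 FPKM and 11.3 ± 1.57 FPKM (SD, n = 3). The difference of -0.24 ± 0.194 on the log2(FPKM + 1) scale did not pass the test (limma adjusted p = 0.761), and its interval ran from -0.66 to 0.19.

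*Taf4b*, the germ cell TFIID subunit, was at the low end of the tested members. Its FPKM was 1.03, 1.09 and 1.99 in control and 0.976, 1.56 and 2.24 in aminophylline libraries. Library 3 was the highest in both groups and the groups overlapped over most of their range. The difference was 0.12 ± 0.243 on the log2(FPKM + 1) scale (limma adjusted p = 0.905), on 106 to 472 reads per library, and it was -0.05 without aminophylline 3. Of the members tested, *Taf4b* varied most over the 6 libraries (coefficient of variation 36.3%) and *Tbpl2* least (13.4%).

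Members varied together in a few pairs over the 6 libraries, which are described without a test because the libraries share groups and depth. *Lhx8* and *Taf4b* had a Pearson correlation of 0.91 of log2(FPKM + 1), both being highest in library 3 of each group. *Figla* ran against *Sohlh2* (-0.80) and *Tbpl2* (-0.74), and the bHLH genes *Sohlh2* and *Figla* thus did not share a pattern. Among 4268 other tested genes with a mean FPKM of at least 10, the closest to *Figla* were *Rbis* (0.996) and *Tpgs1* (0.995), and 70 genes exceeded 0.95. The same mark was exceeded by 47 genes for *Taf4b*, 12 for *Nobox*, 9 for *Tbpl2*, 7 for *Lhx8* and 5 for *Sohlh2*. The closest were *Cdipt* (0.990) and *Nudcd3* (0.984) for *Nobox*, and *Dhdds* (0.988) and *Gars* (0.967) for *Lhx8*. For *Sohlh2* they were *Slc25a14* (0.986) and *Exo5* (0.979). For *Taf4b* they were *Usp7* (0.987) and *Rab3gap1* (0.984), and for *Tbpl2* *Olah* (0.993) and *Pramel15* (0.981).

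The members' partners and paralogs were examined next, a list of 13 genes of which 9 were tested. None of the list passed after adjustment. *Tbp*, the general TATA-binding protein gene (chr17:15499888-15517427), was the 1 gene of this list with an unadjusted p under 0.05, against 7.25% of genes tested. Its FPKM was 133.6, 84.5 and 104.4 in control and 62.4, 66.3 and 62.6 in aminophylline libraries. Each control library was above each aminophylline library, and the aminophylline libraries were nearly level. Groups without overlap in this direction were found for 4.96% of genes tested. The difference was -0.72 ± 0.185 on the log2(FPKM + 1) scale, a 0.607-fold level (limma adjusted p = 0.651), and -0.55 without control 1. In a fit with the replicate number as a block, the adjusted p of *Tbp* was 0.0625, and 2 genes of the list, *Tbp* and *Tcf3*, had an unadjusted p under 0.05, against 14.2% of genes tested.

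Since TBPL2 takes the place of TBP at promoters in growing oocytes, the ratio of their RNAs was compared. A ratio of RNAs does not give the ratio of the proteins, which these libraries do not measure. The ratio of FPKM, *Tbpl2* to *Tbp*, was 0.107, 0.146 and 0.13 in control and 0.173, 0.196 and 0.159 in aminophylline libraries. *Tbp* RNA thus exceeded *Tbpl2* RNA by 6.85 to 9.38 times in control and by 5.09 to 6.28 times in aminophylline libraries, with no overlap between the groups. *Tbp* alone also had no overlap, so the gap in the ratio is not a separate result. The share of gene pairs with such a gap was not counted, and 12.5% of single genes tested had one in either direction. The log2 ratio of (FPKM + 1) was -2.89 ± 0.23 and -2.41 ± 0.14 (SD, n = 3), a difference of 0.48 with a two-sided exact permutation p of 0.1, the smallest that 3 against 3 libraries allow. Since both *Tbp* and *Tbpl2* had lower estimates, the higher ratio came with the larger difference in *Tbp*.

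**Figure D2:**
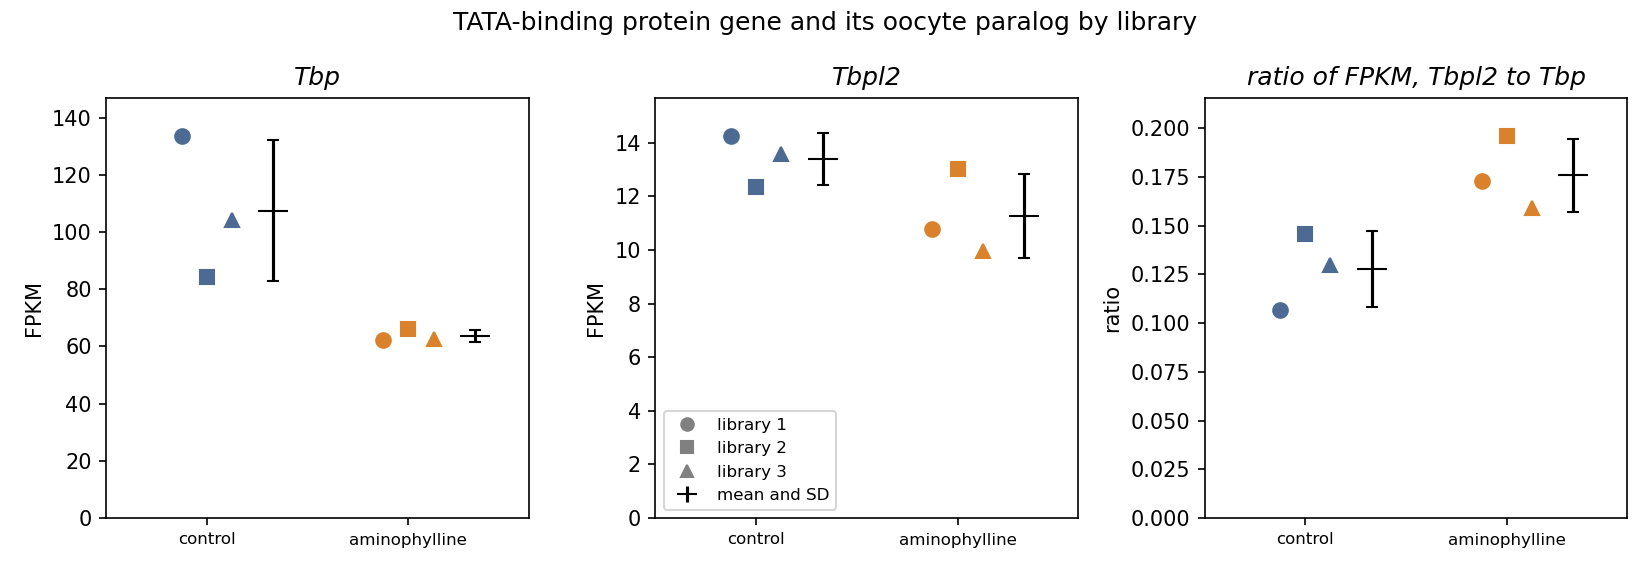
FPKM of *Tbp* (left) and *Tbpl2* (middle) and the ratio of FPKM of *Tbpl2* to *Tbp* (right) in each library, on linear axes from 0, with black bars for the mean and SD (n = 3). *Tbp* lay at 84.5 FPKM or more in control and 66.3 FPKM or less in aminophylline libraries, and the ratio was 0.146 or less in control and 0.159 or more in aminophylline libraries.

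The pair of TAF4B and TAF4 was compared in the same way, and its ratios overlapped between the groups. *Taf4*, the general subunit gene, had an FPKM of 4.90, 3.26 and 6.84 in control and 3.61, 5.26 and 10 in aminophylline libraries. The log2 ratio *Taf4b* to *Taf4* was -1.32 ± 0.26 in control and -1.43 ± 0.29 in aminophylline libraries (SD, n = 3), and the difference of -0.11 had an exact permutation p of 0.7, turning to 0.06 without aminophylline 3. *Taf4b* RNA was below *Taf4* RNA in 6 of 6 libraries, by 2.99 to 4.74 times.

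Among the dimer partners of the bHLH factors, *Tcf3*, which codes for the E proteins E12 and E47 that pair with FIGLA, was the only gene of its class to be tested. Its FPKM was 1.06, 1.37 and 2.26 in control and 1.85, 2.42 and 3.33 in aminophylline libraries, with overlap. The difference of 0.47 ± 0.245 on the log2(FPKM + 1) scale had a limma adjusted p of 0.699 (0.282 with the replicate block). The E protein genes *Tcf12*, at 0.267 to 0.671 FPKM, and *Tcf4*, at 0.0032 to 0.0304 FPKM, were under the filter. *Ldb1* and *Ldb2*, whose proteins bind LIM-homeobox factors such as LHX8, differed by 0.37 (limma adjusted p = 0.746) and 0.23 (0.788), and the LHX8 relatives *Lhx6* and *Lhx9* were at most 0.0543 FPKM. TFIIA, the partner that TBPL2 uses in oocytes, was represented by *Gtf2a1l* at 79.8 to 107.6 FPKM, *Gtf2a2* at 56.8 to 76.8 FPKM and *Gtf2a1* at 4.12 to 13.0 FPKM. The germ cell form *Gtf2a1l* was thus more abundant than *Gtf2a1* throughout, and the 3 TFIIA genes differed by -0.03, -0.03 and 0.04. The other TBP paralog, *Tbpl1*, had 3.39 to 4.54 FPKM and differed by 0.02.

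**Figure D3:**
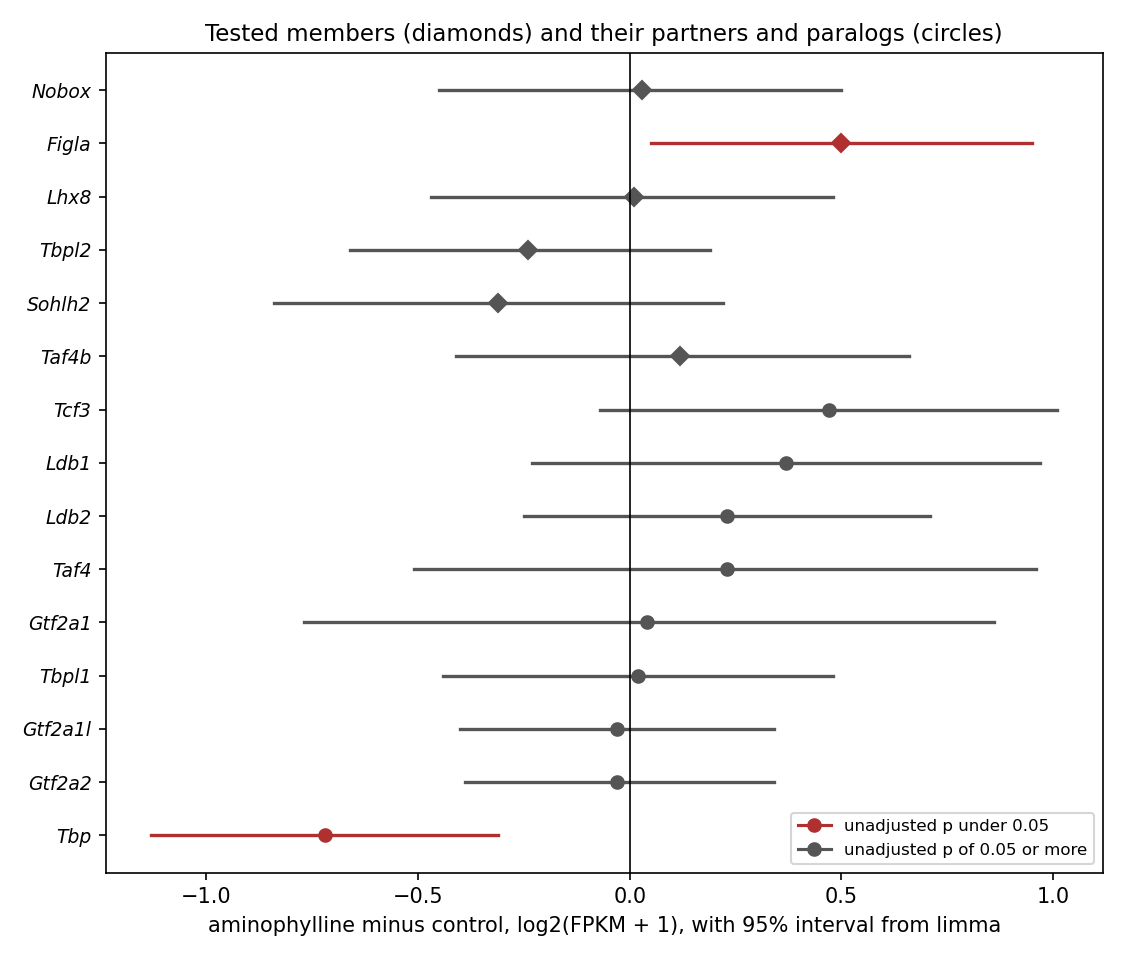
Difference of aminophylline minus control on the log2(FPKM + 1) scale (horizontal axis) for the 6 tested members (diamonds) and 9 tested partners and paralogs (circles), with 95% intervals from limma and red for an unadjusted p under 0.05. The intervals of *Figla* (0.05 to 0.95) and *Tbp* (-1.13 to -0.31) leave out 0, and those of the other 13 genes include it.

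Of the other subunits of TFIID, the complex that holds TBP and TAF4 or TAF4B, 11 of 13 were tested. None had an unadjusted p under 0.05, against 7.25% of genes tested. Their median difference was 0.02. *Taf9* had the highest level of them, with 437.3 to 617.5 FPKM, and *Taf1*, the largest subunit, the lowest with 0.261 to 0.689 FPKM. *Taf6* was the subunit whose groups did not overlap, with 4.25, 4.50 and 7.35 FPKM in control and 3.57, 3.75 and 3.66 FPKM in aminophylline libraries (limma adjusted p = 0.721). Lower values without overlap were found for 4.96% of genes tested. The name of *Taf6* was added after its values were seen. *Tbp* therefore differed by a larger estimate than any tested TFIID subunit, of which the lowest was *Taf6* at -0.42 ± 0.237.

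Other germ cell regulators were tested for 9 of 11 genes in the table, and 1 had an unadjusted p under 0.05, against 7.25% of genes tested. This was *Ybx2*, which codes for a protein that stabilises stored oocyte mRNA. Its FPKM was 10.9, 11.7 and 15.4 in control and 14.2, 21.8 and 26.2 in aminophylline libraries, where aminophylline 1 lay inside the control range. The difference was 0.64 ± 0.244 on the log2(FPKM + 1) scale (limma adjusted p = 0.682). Without control 1 it was 0.55, with an unadjusted p above 0.05. *Dppa3*, a maternal-effect gene, was the most abundant with 7461 to 11560 FPKM, and *Lin28a*, which codes for an RNA-binding regulator, the lowest with 0.157 to 0.645 FPKM. The list's median difference was 0.20. With the replicate block, *Foxo1*, with a difference of 0.48, also had an unadjusted p under 0.05. This made 2 genes of the list, against 14.2% of genes tested.

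Genes reported as targets of these factors were all tested, 22 of 22, with a median difference of 0.17 against 0.10 for all genes tested. Unadjusted p-values under 0.05 were found for 4 genes, all higher in the aminophylline group, and none passed after adjustment. Over all genes tested, 4.41% were higher and 2.84% lower at this mark. With the replicate block, 6 targets had an unadjusted p under 0.05, against 14.2% of genes tested, these 4 and also *Kdm1b*, with a difference of 0.47, and *Rfpl4*, with a difference of -0.35. *Pou5f1*, a pluripotency factor gene reported downstream of NOBOX, had the largest of these differences. Its FPKM was 5.05, 7.56 and 7.30 in control and 12.1, 18.0 and 11.5 in aminophylline libraries. Each aminophylline library was above each control library, as was so for 7.51% of genes tested. The difference was 0.95 ± 0.24 on the log2(FPKM + 1) scale (limma adjusted p = 0.651), and the adjusted p was 0.0374 with the replicate block. The block rests on the library numbers alone, as the labels state no shared animal or batch. *Pou5f1* has related pseudogene copies, and how reads were shared among copies is not given in the sources used here.

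*Zar1*, a maternal-effect gene needed for the oocyte-to-embryo transition, followed with 238, 396 and 400.5 FPKM in control and 585, 473 and 677 FPKM in aminophylline libraries. The groups did not overlap, as was so in this direction for 7.51% of genes tested, and control 1 was the lowest library. The difference was 0.77 ± 0.222 on the log2(FPKM + 1) scale (limma adjusted p = 0.651, and 0.0495 with the replicate block). *Dnmt1*, which codes for the maintenance DNA methyltransferase, differed by 0.69 ± 0.25 with overlapping groups (limma adjusted p = 0.682). Without control 1 the difference of *Dnmt1* was 0.46, with an unadjusted p above 0.05. *Npm2*, the oocyte histone chaperone gene, had 241, 304 and 300.0 FPKM in control and 403, 378 and 386 FPKM in aminophylline libraries. Its groups also stood apart in this direction, with a difference of 0.47 ± 0.153 (limma adjusted p = 0.664).

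The zona pellucida genes, the best known targets of FIGLA, had differences of either sign and none passed the test. *Zp2* had 734, 770.5 and 1071 FPKM in control and 667, 671 and 702 FPKM in aminophylline libraries. Each aminophylline library was below each control library, with a difference of -0.32 ± 0.172 on the log2(FPKM + 1) scale (limma adjusted p = 0.715). *Zp1* differed by -0.26 (limma adjusted p = 0.742) and *Zp3* by 0.07 (limma adjusted p = 0.942), both with overlap. *Gdf9* and *Bmp15*, the secreted oocyte growth factor genes, differed by 0.22 and 0.08, and *Kit*, the receptor gene under SOHLH control, by 0.16. In all, 4 targets lay higher (*Pou5f1*, *Zar1*, *Npm2*, *Oosp1*) and 2 lower (*Zp2*, *Oog1*) with no overlap between groups, against 7.51% and 4.96% of genes tested. *Oog1* belongs to a family of near-identical copies, so its value is uncertain. H1f8, the oocyte linker histone gene, had the highest level of the list at 5512 to 8761 FPKM and *Pou5f1* the lowest.

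**Figure D4:**
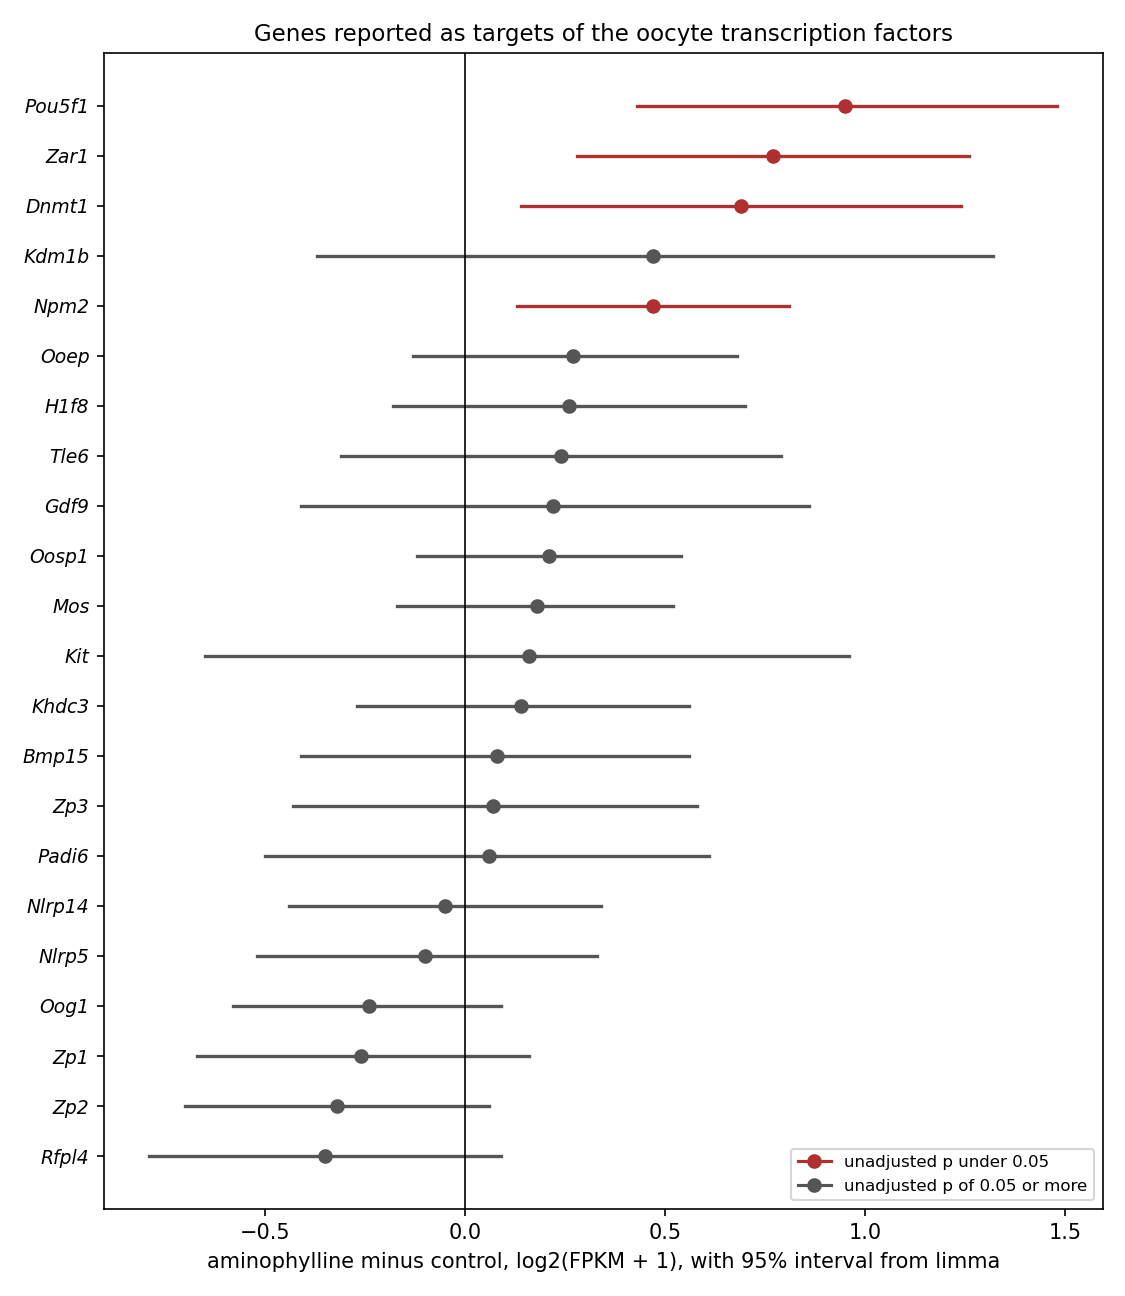
Difference of aminophylline minus control on the log2(FPKM + 1) scale (horizontal axis) for the 22 reported target genes, sorted by the difference, with 95% intervals from limma and red for an unadjusted p under 0.05. The intervals of *Pou5f1*, *Zar1*, *Dnmt1* and *Npm2* lie above 0, and those of the other 18 genes include 0, the zona pellucida genes *Zp1*, *Zp2* and *Zp3* among them.

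E-boxes in target promoters were counted in the same way. A start site was matched for 16 of the 22 targets, of which 15 held CANNTG and 8 held CACCTG at any of their start sites, among them *Zar1* and *Zp3*. Counted over genes in the same way, CANNTG was found in 69.3% and CACCTG in 19.4% of all genes with a start site. CACGTG was found in *Zp3* and *Tle6*, against 6.86% of genes. *Pou5f1*, with the largest difference of the list, held CANNTG and not CACCTG, whereas *Zar1*, next to it, held both.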

How the data were processed

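Per the labels, total RNA was extracted with TRIzol, and libraries were sequenced by a company for the authors. The deposited FPKM values per gene, listed by symbol and NCBI gene number, were used as given. The submitters' processing notes name GRCm38 and mm10, and the aligner, the counter and the use of strand are not given in the sources used here. Members were matched by symbol, and groups were taken from the labels. Members and gene lists were chosen with earlier results of these data known. Whole reads were recovered from the ratios of FPKM between libraries for 22583 of 22583 genes above 0 in at least 2 libraries (relative tolerance 1e-06), and 99.57% to 99.63% of each total lay on the listed genes.

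Groups were compared with limma 3.58.1 in R 4.3.3 (two-sided moderated test with a trend, no block) on log2(FPKM + 1) for the 10340 genes that reached an FPKM of 1 in 3 or more libraries, with Benjamini-Hochberg adjustment over these genes. A fold change on this scale understates that of low genes. The median SE was 0.223. The 2 ratios were compared with exact permutation tests over libraries. Deviations from the group means correlated at 0.138, 0.14 and 0.552 between same-numbered libraries. Control 2 and aminophylline 1 reached 0.423, above 2 of these, and the labels state no shared animal or batch. The named genes were the members, all partners and paralogs, the genes of each list with an unadjusted p under 0.05 and its highest and lowest by mean FPKM, and the 2 genes most correlated with each tested member. Other genes, such as the zona pellucida and growth factor genes, were named for their known roles after their values were seen. On simulated reads with 4-fold changes, 193 of 193 changed genes among 10130 tested were recovered, and 10 others were called. These reads had a negative binomial dispersion of 0.05 and no shared library effects. The simulation therefore does not measure power for the smaller differences reported here. Promoters were scanned in Python 3.11.15 with pandas 2.3.3, and plots were drawn with matplotlib 3.10.9. The alternatives were another pseudocount, filter, scaling or test, the replicate block, library weights and leaving out each library.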

Additional observations from a re-analysis of the deposited data

How the results depend on the processing

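No alternative gave a member an adjusted p under 0.05. *Figla* kept a higher estimate in each of 17 settings (0.34 to 0.72), 9 of them with an unadjusted p under 0.05, and *Sohlh2* (-0.48 to -0.14) and *Tbpl2* (-0.34 to -0.16) kept lower ones. The count of members with an unadjusted p under 0.05 was 0 instead of 1 with median centring, no filter and an unmoderated linear model, and 0 to 1 when a library was left out, 1 only without control 2. *Nobox* was -0.02 on a common sum (TPM), -0.06 with median centring, -0.05 with quantile normalization, 0.32 with library weights, and -0.20 to 0.19 with a library left out. *Lhx8* was -0.03, -0.07 and -0.02 on a common sum, with median centring and with quantile normalization, and -0.15 to 0.20. *Taf4b* ran from -0.05 to 0.30 with a library left out. The cause of these reversals was not tested. The log2 ratio *Tbpl2* to *Tbp* differed by 0.36 to 0.59 with a library left out. The ratio *Taf4b* to *Taf4* ran from -0.22 to 0.06, with 0.06 without aminophylline 3 and 0.04 without control 2.

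Over all genes tested, 750 had an unadjusted p under 0.05, against 2011 with library weights, 1404 with no filter and 1467 with the replicate block, and 329 to 1617 when a library was left out (329 without aminophylline 2, 428 without aminophylline 3, 369 without control 1, 1617 without control 2 and 1474 without control 3). The replicate block gave 47 genes an adjusted p under 0.05, against 0 without it and 0 in the other settings. It brought *Pou5f1* (0.95, adjusted p = 0.0374) and *Zar1* (0.77, adjusted p = 0.0495) past the threshold and changed no member's call. Without the block, adjusted p ran up to 0.999 for both. An unadjusted p under 0.05 was found in all 17 settings for *Tbp* and *Pou5f1*, and in 16 for *Zar1*. It was found in 15 for *Npm2*, 12 for *Dnmt1* and 11 for *Ybx2*. The median difference of all genes was 0.10, and 0.01 with median centring. A filter at a mean FPKM of at least 5 left 4 members to test. *Sohlh1* had at most 11 reads in a library, so its level rests on few reads.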
